A study of Rattus norvegicus with 6 samples.

Results

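Ion pumps and sodium-calcium exchangers were examined in the medial prefrontal cortex (mPFC) of rats 90 min after a single injection of lysergic acid diethylamide (LSD), a serotonin receptor agonist and psychedelic. The family comprised 7 genes, Atp1b1, Atp1b2, Atp2a2, Atp2b1, Atp2b2, Slc8a1 and Slc24a2, and its members were all probe sets whose annotated symbol is exactly one of these, which gave 24 of the 8740 probe sets tested and 7 of the 4736 genes. A probe set is a group of short array probes meant to read one transcript, though some can match several. All 7 genes had at least 2 probe sets, and no filter on dim signals was applied to them. The genes were picked as a family when the differences between LSD and saline on these arrays were already known, so those differences are given as a description and support nothing by themselves.

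The LSD group consisted of male Sprague-Dawley rats injected intraperitoneally (i.p.) with (+)-LSD tartrate at 1.0 mg/kg, and the control group of male Sprague-Dawley rats injected i.p. with saline at the same time. No allele or other agent differed between the groups, and the sources used here give no age. RNA of each group was read on 3 Affymetrix rat arrays. Per the labels the tissue of 4 animals per group was pooled before extraction, whereas the study describes each array as a separate pool of a pair of rats, so errors and p-values here cover only how arrays differ, and that variation could be technical. The second line of every sample description names the opposite treatment from the title and the treatment label. Groups were taken from titles and treatment labels, and under the opposite reading each difference below changes sign.

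Neurons spend much of their energy on restoring ion gradients after electrical activity. The sodium pump (Na,K-ATPase) expels sodium and takes up potassium, and its beta subunit carries the catalytic alpha subunit to the cell surface. Calcium that enters during firing is returned to the endoplasmic reticulum by SERCA pumps, is pushed out of the cell by plasma membrane calcium pumps (PMCA), or leaves through exchangers that let sodium in as calcium goes out. In bulk tissue, fewer cells of a type and less RNA per cell cannot be told apart.

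The gene that differed most was Slc24a2, which encodes NCKX2, the potassium-dependent sodium-calcium exchanger of neurons. Its brighter probe set stood 1.33-fold higher on the LSD arrays than on the saline arrays, and no LSD array overlapped a saline array. In the other Slc24a2 probe set the groups overlapped, with a difference of 0.06 log2 units. Both were dim, with mean signals of 5.03 and 3.94 log2 units, below the median of all probe sets (5.43). The brightest probe sets (those of highest mean signal for their gene) of Atp1b2, a glial sodium pump subunit, and Atp2b2, a neuronal plasma membrane calcium pump, lay 1.17-fold and 1.15-fold lower on average, and those of Atp1b1, Atp2a2, Atp2b1 and Slc8a1 differed by less than 0.1 log2 units. In limma with Benjamini-Hochberg adjustment over all 8740 probe sets, 0 of the 24 member probe sets passed an adjusted p of 0.05, where 0.0686% of all probe sets passed (0.0114% with LSD higher and 0.0572% with LSD lower), and the lowest adjusted p in the family was 0.398. An unadjusted limma p below 0.05 was found for 1 of the 24, against 3.92% of all probe sets. Since the members were chosen with this contrast known, these counts are given only for orientation.

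**Figure D1:**
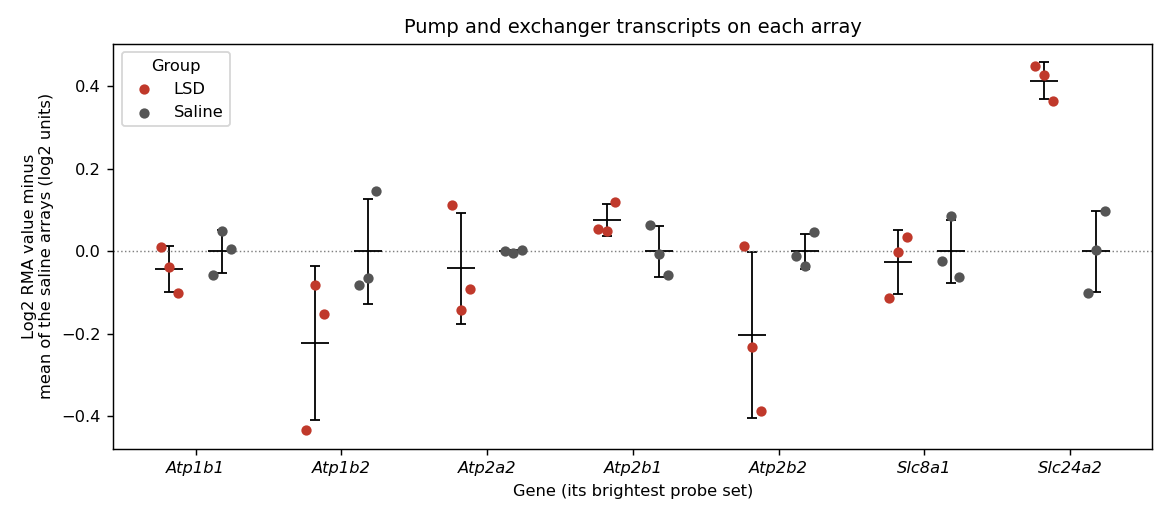
Log2 RMA value of the brightest probe set of each gene, minus the mean of its 3 saline arrays (vertical axis, log2 units), with 1 point per array, LSD in red and saline in grey, and bars that show the group mean and its SD (n = 3). Slc24a2 is the gene whose LSD points all stand well above its saline points, the LSD points of Atp1b2 and Atp2b2 spread downwards, and the remaining genes stay near the dotted line.

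Values are log2 units of robust multi-array average (RMA) signal, in which 1 unit is a 2-fold step in signal and the level of one probe set cannot be set against that of another. For Slc24a2, the probe set AF021923_at read 5.27, 5.25 and 5.18 log2 units on LSD arrays 1, 2 and 3, against 4.72, 4.82 and 4.92 on saline arrays 1, 2 and 3. The lowest LSD array thus lay above the highest saline array, and the arrays of a group stayed close together (5.23 ± 0.045 for LSD and 4.82 ± 0.099 for saline, SD, n = 3). The difference was 0.41 ± 0.087 log2 units (SE), with a 95% interval from 0.21 to 0.61. It ranked 31 by p and 107 by size among all probe sets, and its adjusted p of 0.398 in limma did not pass. The second probe set, AF027506_s_at, read 3.84, 3.99 and 4.09 on the LSD arrays, against 3.87, 3.89 and 3.97 on the saline arrays. Here the groups overlapped, and the difference was 0.06 ± 0.093 log2 units (SE), with 0.0044 without LSD 3 and 0.13 without LSD 1. The intervals of the 2 probe sets, from 0.21 to 0.61 and from -0.15 to 0.28, overlap in a narrow range, and their difference was not tested. The sequence around the gene's start is shown because Slc24a2 had the most positive difference of the 7. It is the RefSeq window of GRCr8, chr5:106787731-106788030 on the minus strand, from 250 bases before the start to 50 bases after it.
Slc24a2: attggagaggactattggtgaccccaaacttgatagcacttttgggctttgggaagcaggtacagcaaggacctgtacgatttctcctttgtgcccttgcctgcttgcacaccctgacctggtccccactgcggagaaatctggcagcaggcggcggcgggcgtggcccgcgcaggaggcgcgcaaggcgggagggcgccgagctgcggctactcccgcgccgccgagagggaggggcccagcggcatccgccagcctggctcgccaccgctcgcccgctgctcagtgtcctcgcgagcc
The window is 67% G and C, against a median of 51.7% over 33469 windows. On either strand it holds none of the motifs searched, namely the cyclic AMP response element TGACGTCA (in 1.83% of all windows), the TATA box core TATAAA (14.2%) and the GC box core GGGCGG (33.1%). No match says only that these letters are not in this window.

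By Pearson correlation over the 6 arrays, the 3 genes outside the family most like Slc24a2 were Ncr3, a receptor of natural killer cells (r = 0.99, Spearman rho = 1), Gria3, the gene of AMPA receptor subunit 3 (r = 0.98, rho = 0.94), and Zswim7, a gene of homologous recombination (r = 0.98, rho = 0.94). Of 4729 genes compared, 51 had an r above 0.9, the arrays share one normalization, and the separation of the 2 groups enters each r. Gria3 read 6.63, 6.51 and 6.57 log2 units on the LSD arrays and 5.82, 6.07 and 6.11 on the saline arrays at its brightest probe set. Ncr3 and Zswim7 differed by 0.14 log2 units each.

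The other exchanger, Slc8a1, encodes NCX1, which is widespread in brain and heart and moves calcium without potassium. It was read by 5 probe sets, and the brightest, X68812_s_at, gave 8.33, 8.45 and 8.48 log2 units on the LSD arrays, against 8.42, 8.53 and 8.39 on the saline arrays. The groups overlapped, with LSD 1 below every saline array and Saline 2 above every LSD array, and with a difference of -0.03 ± 0.087 log2 units (SE) and a 95% interval from -0.23 to 0.17. Its sign turned with array weights (0.0045) and without LSD 1 (0.018) or Saline 2 (0.017). Of the other 4 probe sets, S67769_s_at differed by -0.23 ± 0.13 log2 units (SE), U04937_s_at by -0.08 and X68191_at by 0.09, and the groups overlapped in each. Both of the last signs turned under other settings, for U04937_s_at with array weights (0.073) and without Saline 1 (0.0099), and for X68191_at without Saline 1 (-0.0092). For U04934_s_at all LSD arrays (4.915, 4.875 and 4.815 log2 units) lay below all saline arrays (4.955, 4.918 and 4.924). However, LSD 1 and Saline 2 almost touched, and the difference was only -0.06 ± 0.078 (SE). In S67769_s_at the highest value of all was that of Saline 1 (6.46), and without that array the difference was -0.093.

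The sodium pump was represented by 2 beta subunits. Atp1b1 encodes beta1, the common beta subunit of neurons. Its brightest probe set, rc_AI112173_at, read 11.07, 11.02 and 10.96 log2 units on the LSD arrays, against 11.00, 11.11 and 11.07 on the saline arrays. These ranges overlap, and the difference of -0.04 ± 0.081 log2 units (SE) has a 95% interval from -0.23 to 0.15. The sign depended on the scaling, being positive after a second quantile normalization (0.043) and after cyclic loess (0.0069). The other Atp1b1 probe sets differed by -0.06 ± 0.17 (rc_AI230614_s_at) and 0.02 ± 0.082 log2 units (X63375exon_at, SE), again with overlap. The sign of X63375exon_at turned in 2 of 14 alternatives, with the lowest value at -0.017 without LSD 2. In rc_AI230614_s_at, LSD 1 (9.45) stood above the other LSD arrays (8.91 and 8.78) and above every saline array (9.05 to 9.19), and without it the difference was -0.27, while without LSD 2 or LSD 3 it turned positive (0.0047 and 0.069).

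Atp1b2 encodes beta2, also known as the adhesion molecule on glia. Its brightest probe set, J04629_at, read 6.722, 7.074 and 7.004 log2 units on the LSD arrays, against 7.075, 7.091 and 7.302 on the saline arrays. The groups did not overlap, but LSD 2 and Saline 1 almost touched, and LSD 1 and Saline 3 made most of the gap. The means were 6.93 ± 0.19 for LSD and 7.16 ± 0.13 for saline (SD, n = 3), and the difference was -0.22 ± 0.12 log2 units (SE, 95% interval from -0.50 to 0.051). Without LSD 1 it was -0.12. D90048exon_at differed by -0.37 ± 0.19 log2 units (SE), with 6.14 to 6.34 on the LSD arrays, against 7.09, 6.29 and 6.45 on the saline arrays. Saline 1 stood apart here, and without that array the difference was -0.14. D90048exon_g_at, which is derived from the same sequence record, differed by 0.10 ± 0.12 (SE), with overlap. Its sign turned in 2 of 14 alternatives, with the lowest value at -0.021 with array weights. The start region of Atp1b2 is shown as that of the member with the most negative difference at its brightest probe set, GRCr8 chr10:54823659-54823958 on the minus strand, with the searched motifs in capitals.
Atp1b2: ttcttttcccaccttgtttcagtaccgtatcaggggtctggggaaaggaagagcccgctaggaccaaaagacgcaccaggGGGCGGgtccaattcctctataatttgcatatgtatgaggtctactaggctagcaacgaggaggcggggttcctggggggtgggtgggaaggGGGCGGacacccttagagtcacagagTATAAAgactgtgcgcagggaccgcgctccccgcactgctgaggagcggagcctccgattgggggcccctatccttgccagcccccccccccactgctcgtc
The capitals mark GGGCGG 170 and 78 bases before the start and TATAAA 52 bases before it, and no TGACGTCA was found. Windows were available for 6 of the 7 genes, and of these Atp1b2 alone held TATAAA, while GGGCGG was found in Atp1b2, Atp2a2, Atp2b1 and Atp2b2. These matches are descriptions of sequence and not measured binding sites.

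Among the calcium pumps, Atp2a2 encodes SERCA2, the main pump of the endoplasmic reticulum in brain. The brightest of its 4 probe sets, AA799276_at, read 10.64, 10.39 and 10.44 log2 units on the LSD arrays, against 10.53, 10.52 and 10.53 on the saline arrays. The LSD arrays (SD 0.13) spread around the saline arrays, which were almost identical (SD 0.0039), and the difference was -0.04 ± 0.093 log2 units (SE). The other 3 probe sets lay on the other side of 0. For rc_AA957510_s_at the LSD arrays read 8.87, 8.88 and 8.87 log2 units, against 8.75, 8.72 and 8.72 on the saline arrays. Both groups were tight and did not overlap in this probe set, and the difference was 0.14 ± 0.075 (SE, 95% interval from -0.029 to 0.32). J04024_at differed by 0.19 ± 0.12 and rc_AA800212_at by 0.11 ± 0.12 log2 units (SE), both with overlap. With array weights J04024_at was at 0.025, and rc_AA800212_at ran from 0.017 without LSD 2 to 0.21 without LSD 1. The direction for the gene therefore depended on the probe set, being -0.04 with the brightest, 0.10 with the mean of the 4 and 0.19 with the most variable, and it also turned after a second quantile normalization (0.0055) and without LSD 2 (0.010).

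The plasma membrane calcium pumps PMCA1, which most cells make, and PMCA2, which is rich in neurons such as cerebellar Purkinje cells, had differences of opposite sign. For Atp2b1 (PMCA1) the brightest probe set, L04739cds_s_at, read 7.59, 7.59 and 7.66 log2 units on the LSD arrays, against 7.60, 7.53 and 7.48 on the saline arrays. Saline 1 lay inside the LSD range, and the difference was 0.08 ± 0.080 log2 units (SE). All 3 Atp2b1 probe sets had positive differences, with 0.18 ± 0.099 for rc_AI172499_at and 0.09 ± 0.24 for rc_AI103671_at (SE), and each overlapped. In rc_AI103671_at, Saline 1 (4.67) stood above the other saline arrays (3.66 and 3.80), and without it the difference was 0.40, while without Saline 2 or Saline 3 it turned negative (-0.11 and -0.034).

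For Atp2b2 (PMCA2) all 4 probe sets had negative differences with all arrays in, and each overlapped. The brightest, J03754Complete_seq_at, read 8.55, 8.30 and 8.15 log2 units on the LSD arrays, against 8.52, 8.50 and 8.58 on the saline arrays. LSD 2 and LSD 3 lay below all saline arrays and LSD 1 among them, and the difference was -0.20 ± 0.11 log2 units (SE, 95% interval from -0.46 to 0.057). It was -0.31 without LSD 1 and -0.11 without LSD 3. The other probe sets differed by -0.13 ± 0.14 (rc_AA955388_s_at), -0.09 ± 0.085 (L05557cds_g_at) and -0.02 ± 0.086 log2 units (rc_AA943784_s_at, SE). Of these, rc_AA955388_s_at ran from -0.29 without LSD 1 to -0.0074 without LSD 2, L05557cds_g_at was -0.043 without LSD 2, and rc_AA943784_s_at turned positive without LSD 3 (0.016) or Saline 3 (0.014). Probe sets of one gene share its RNA and are not replicates of the treatment. The difference between the 2 PMCA genes was not tested.

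**Figure D2:**
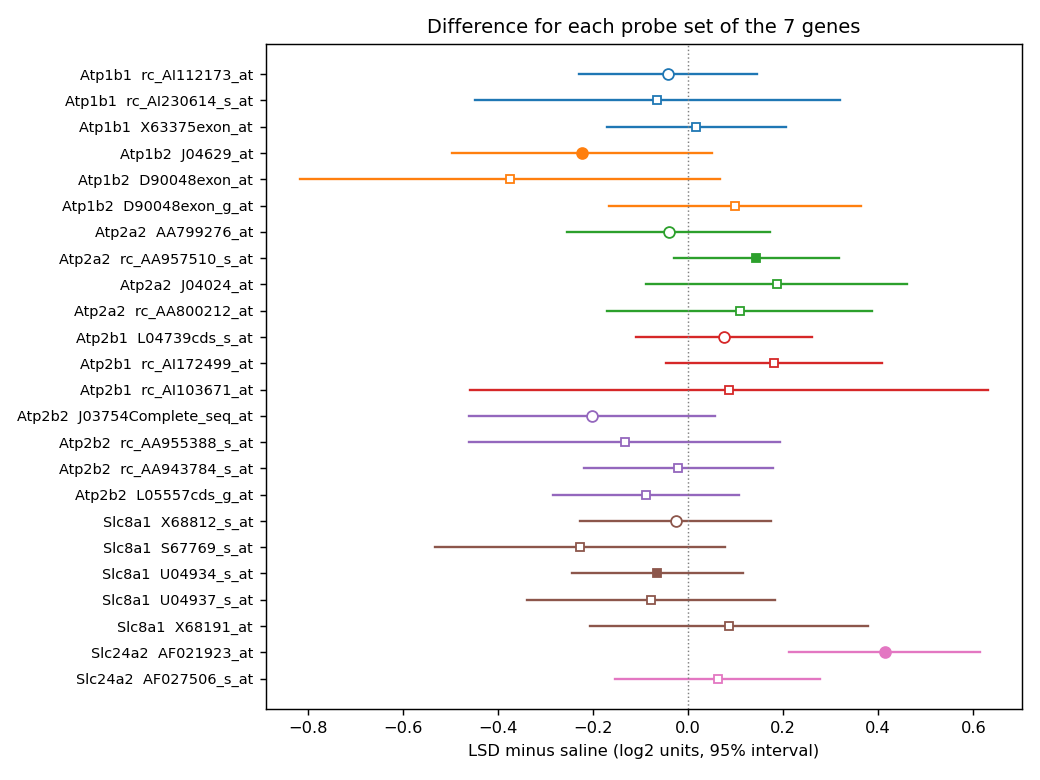
LSD minus saline (horizontal axis, log2 units) for each of the 24 probe sets, grouped by gene in one colour, where symbols give the estimate and lines its 95% interval in limma. Circles mark the brightest probe set of a gene, squares the others, and filled symbols the 4 probe sets whose groups did not overlap. The interval excludes 0 for 1 of them, AF021923_at of Slc24a2.

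Over the family, 11 probe sets had positive (51.4% of all probe sets) and 13 negative differences, with a median of -0.023 log2 units, against 0.0045 over all 8740 probe sets. The groups did not overlap in 4 of 24, against 10.4% of all probe sets, of which 2 had LSD higher (6.58% of all) and 2 had LSD lower (3.79%). Counting each brightest probe set, 18 of the 24 had the sign of the brightest of their gene, and with all arrays in, the sign was shared by all probe sets of Atp2b1, Atp2b2 and Slc24a2. Without single arrays it turned in 1 probe set each of Atp2b1 and Atp2b2, as given above. The 95% interval lay wholly within a 1.5-fold change for 21 of the 24 and for 92.4% of all probe sets. It reached a 1.5-fold higher level for AF021923_at and rc_AI103671_at and a 1.5-fold lower level for D90048exon_at. Probe sets whose names end in _s_at, 10 of the 24, can match several transcripts, so their signal cannot be assigned to one gene with certainty.

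With the brightest probe set per gene, the groups did not overlap in 2 of the 7 genes (10.3% of all genes), with LSD above in Slc24a2 (6.97%) and below in Atp1b2 (3.34%). Of the 7 genes, 2 were nominally higher (51.7% of all genes) and 5 lower after LSD, and 0 passed over 4736 genes, of which 0.0211% passed (lowest adjusted p in limma 0.590, for Slc24a2). In the same test, related ion transport genes from 7 lists had 22 of 41 measured members nominally higher and 19 lower, with 0 passing. At an unadjusted limma p below 0.05 there were 1 of the 7 genes, 0 of the 41 related genes and 172 of all 4736 genes. The median difference of the 41 related genes was 0.019 log2 units, against -0.041 for the 7 genes and 0.0056 over all genes. Of the other sodium pump subunits 2 of 6 were measured under a single symbol, with -0.17 ± 0.10 log2 units for Atp1b3 (beta3) and -0.05 ± 0.14 for Atp1a4, the alpha subunit of sperm (SE). Among the FXYD proteins, small regulators of the sodium pump, 3 of 7 were measured, with Fxyd2 at 0.16 ± 0.094 and Fxyd4 at 0.13 ± 0.15 (SE). The other calcium pumps and SERCA regulators had 4 of 6 nominally higher and none past 0.1 log2 units, led by Atp2a3 (SERCA3) at 0.07 and Atp2b4 (PMCA4) at 0.06. The exchangers Slc8a3 (NCX3) and Slc8a2 (NCX2) differed by -0.04 and -0.0017 log2 units.

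Proton pumps, which acidify vesicles, lysosomes and the stomach, had 8 of 11 members nominally higher, with a median of 0.044 log2 units. Their largest differences were -0.15 ± 0.080 for Atp6v0c, the membrane ring subunit of the vesicular pump, and 0.14 ± 0.089 for Atp6v1f (SE). Genes of calcium stores had 6 of 10 nominally higher, led by the chaperone calnexin (Canx, 0.16 ± 0.37, SE) and the ryanodine receptor Ryr2 (-0.14 ± 0.14). Other sodium- and chloride-coupled carriers had 5 of 7 nominally lower, led by the anion exchanger Slc4a3 (-0.15 ± 0.086, SE) and the chloride importer Slc12a2 (-0.07 ± 0.10). No gene named here passed in limma.

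**Figure D3:**
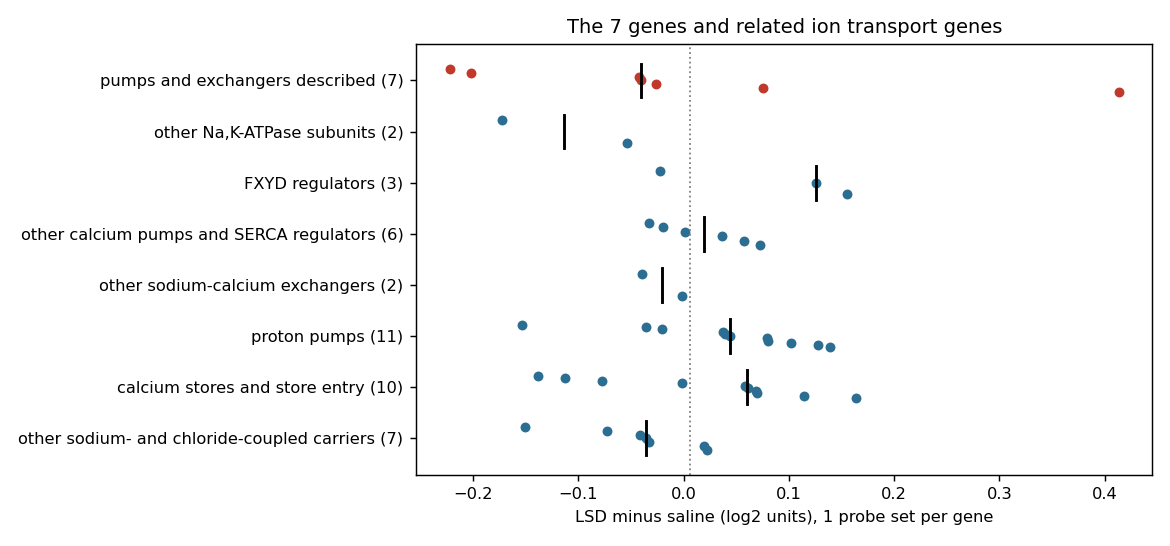
LSD minus saline (horizontal axis, log2 units) for the 7 genes, in red, and for related ion transport genes by list, in blue, with 1 point per gene, the number of genes in brackets, a black bar for the median of each list and a dotted line for the median of all genes. At the brightest probe set of each gene, Slc24a2 lies apart at 0.41, while the 41 related genes lie between -0.17 and 0.16. Other probe sets are not drawn, among them 1 of Slc24a2 at 0.06 and 1 of Atp6v1a at 0.39.

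Several features of the arrays moved alongside. Saline 1 stood apart, since 78 of its probe sets deviated by over 1 log2 unit from the average of the remaining arrays, against 2 to 21 for each of those. Within its group it was the highest array in 9 and the lowest in 10 of the 24 member probe sets (39.4% and 43.4% of all probe sets). Markers of neurons, the cells in which Slc24a2 is mainly made, averaged 7.82 to 7.92 log2 units on the LSD arrays and 7.75 to 7.83 on the saline arrays, with 4 of 6 nominally higher. Syt1 (0.33) and Nefl (0.22 log2 units) were the 2 of the 6 with an unadjusted limma p below 0.05, and 0 passed after adjustment. The 2 lower were Camk2a (-0.19) and Slc17a7 (-0.16). In 3 of the 6 all LSD arrays lay above all saline arrays, against 6.97% of all genes. Markers of astrocytes, in which Atp1b2 is rich, averaged 8.15 to 8.16 on the LSD arrays and 8.12 to 8.20 on the saline arrays, with 4 of 7 nominally higher. This average covers differences of both signs, with Aqp4 at 0.41, Slc1a3 at -0.25 and S100b at -0.24 log2 units. These 3 of the 7 had an unadjusted limma p below 0.05, and 0 passed after adjustment. Markers of the striatum, which lies near the dissected region, averaged 5.84 to 5.94 on the LSD arrays and 6.11 to 6.15 on the saline arrays, with 7 of 7 nominally lower, and those of choroid plexus and meninges averaged 6.26 to 6.29 on the LSD arrays and 6.35 to 6.38 on the saline arrays, with 7 of 10 nominally lower. Of these 10, Ttr (-0.49), Enpp2 (-0.41) and Igf2 (-0.24 log2 units) differed most. The 3 higher were Col1a2 (0.17), Aqp1 (0.15) and Col1a1 (0.13), and the rest lay between -0.08 and -0.0042. The other Igf2 probe sets had positive differences of 0.02 to 0.10. The ranges of the 2 groups overlapped for neurons and astrocytes, and likewise for interneurons, oligodendrocytes, microglia and endothelium. They did not overlap for striatum or for choroid plexus and meninges. As a sign of RNA integrity, the beta-actin signal at the 3' end exceeded that at the 5' end by 0.687 ± 0.041 log2 units on the LSD arrays and 0.787 ± 0.044 on the saline arrays (SD, n = 3, two-sided exact permutation p = 0.1, the smallest that 3 against 3 allows). For Gapdh the same measure was 0.492 ± 0.091 on the LSD arrays and 0.523 ± 0.043 on the saline arrays (SD, n = 3, exact permutation p = 0.7). The part of these features in the differences above was not tested.

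**Figure D4:**
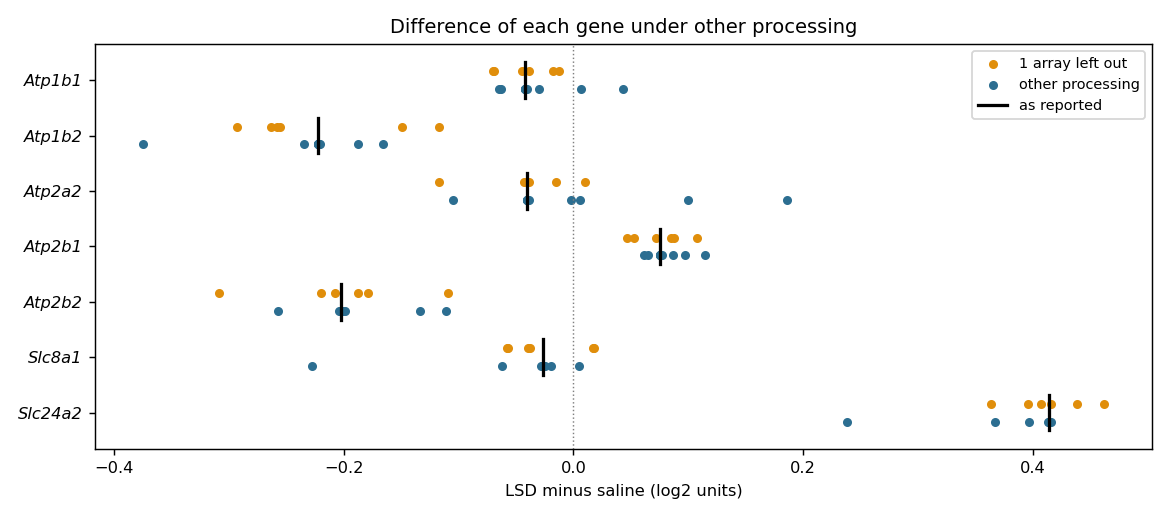
LSD minus saline (horizontal axis, log2 units) of each gene as reported (black bar), with 1 array left out (orange) and under other processing (blue). Slc24a2 stays between 0.24 and 0.46 and Atp1b2 and Atp2b2 stay below 0, while the points of Atp1b1, Atp2a2 and Slc8a1 fall on both sides of the dotted line. No point rests on AF027506_s_at of Slc24a2 (0.06) or D90048exon_g_at of Atp1b2 (0.10) alone.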

How the data were processed

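Expression was read in mPFC tissue on 6 Affymetrix rat genome arrays, 3 per group. Values were deposited on the log2 scale, computed by the authors with RMA in the affy package (background correction, quantile normalization across arrays, 1 summary per probe set). Its version is not given in the sources used here. Quantile normalization hides a change shared by most transcripts. With no read depth, precision is set by the number of arrays.

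The table held 8799 rows. Tests covered 8740 of these, as 59 were controls. The platform annotation gave 7006 of them 1 symbol, 308 several and 1426 none. By gene ID, 6985 matched RefSeq genes of GRCr8, which changed 0 symbols. The probe set of highest mean stood for its gene in gene-level tests, as in the study's methods.

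Groups were compared by limma 3.58.1 in R 4.3.3 (lmFit, eBayes, no covariate, two-sided, Benjamini-Hochberg, threshold 0.05), tested on simulated data. The simulation planted 2-fold shifts in independent noise, larger than any member difference. It therefore cannot show how often differences of the sizes reported here would pass. Errors of differences are its standard errors. The members and lists were chosen with earlier results of these data known. Named were all member probe sets, the 2 genes of largest absolute difference per related list and the 3 genes most like Slc24a2. Alternatives were other scalings, dim probe sets removed, array weights, an exact rank sum test, a robust prior with intensity trend, the replicate number as a block, other probe sets per gene, and each array left out.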

Additional observations from a re-analysis of the deposited data

How the results depend on the processing

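The number of member probe sets and member genes past the threshold was 0 under every alternative run, as was that of related genes. The exact rank sum test could not have passed, since 3 arrays against 3 allow no p below 0.1. Over all probe sets 6 passed as reported (1 higher, 5 lower), 16 above the median level (8 higher, 8 lower), 20 with a robust prior that follows intensity (7 higher, 13 lower), 42 with array weights (21 higher, 21 lower), 0 to 3 with 1 array left out (3 without Saline 1, 0 without any other) and 0 with the rank test. Over genes 1 passed as reported, and 0 to 6 under the alternatives. The lowest adjusted p of Slc24a2 was 0.0671 for AF021923_at and 0.107 for the gene, both in limma with array weights. Across all alternatives, in limma or the rank sum test, the adjusted p went up to 0.999 and 0.997. The filter on dim probe sets removed both Slc24a2 probe sets, so no value exists there. Of 111 gene differences under alternatives 9 changed sign, all of Atp1b1, Atp2a2 or Slc8a1, and of 327 probe set differences 20 did. Averaged over its probe sets, Slc24a2 differed by 0.24. No alternative took AF027506_s_at alone for Slc24a2 or D90048exon_g_at alone for Atp1b2, so these gene differences were not tried on them. The median-level filter and the second quantile normalization left 1 and 4 member genes nominally higher. The shared replicate numbers do not pair the arrays by any source, and deviations of same-numbered arrays correlated at -0.018, -0.23 and 0.17. With the number as a replicate block 0 member probe sets, 0 member genes and 0 probe sets overall passed.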

Other observations

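Among the probe sets of related genes that did not stand for their genes, 2 were singled out after their values had been seen. For Atp6v1a, the catalytic subunit of the vesicular proton pump, rc_AA892006_g_at differed by 0.39 ± 0.098 log2 units (SE, adjusted p in limma 0.780), and the other Atp6v1a probe sets by 0.18 and 0.08. For Itpr1, the receptor that releases calcium from the endoplasmic reticulum, U38653_s_at differed by 0.31 ± 0.10 (SE, adjusted p in limma 0.981), while the other 4 Itpr1 probe sets lay between -0.16 and 0.08.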
